A study of Nilaparvata lugens with 9 samples.

Results

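The change of miRNAs between the first and the fifth day of adult life was described in the brown planthopper *Nilaparvata lugens* (BPH), a sap-feeding pest of rice. The comparison used the 3 libraries of females sampled 5 days after emergence (5 d) and the 3 libraries of females sampled 1 day after emergence (1 d), which are 6 of the 9 small RNA libraries of the series. The other 3 libraries, of 3 d, entered the model for the spread between libraries and are given as the phase in between. All insects were untreated short-winged (SW) females, and RNA was taken from whole bodies. They came from one field population reared on susceptible rice seedlings of the cultivar TN1, and several insects were pooled for a sample. The span runs from newly emerged females to reproductive adults. All 759 distinct mature sequences of the expression table were members, of which 197 were known miRNAs and 562 were predicted candidate (PC) miRNAs, which the authors had not matched to a known mature miRNA.

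miRNAs are short RNAs cut from the stem of a hairpin precursor. Either arm of the hairpin, 5p or 3p, can give a mature miRNA, and usually one arm is kept at a far higher level. The mature miRNA guides a silencing complex to messenger RNAs, mainly through its seed, the bases 2 to 8 from its 5′ end, so miRNAs with the same seed form a family that can bind overlapping sets of targets. In insects, miRNAs act in moulting, metamorphosis, metabolism and egg production.

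Of the 341 tested sequences 5 changed between 1 d and 5 d at an adjusted p below 0.05 (1.47%). miR-34-5p, miR-317-3p and miR-2788-3p rose, and miR-9a-5p and PC-5p-24585_327 fell. The first group of sequences holds miR-34-5p, miR-277-3p and miR-317-3p, which lie on one scaffold, with the sequence of the other arm of the miR-34 hairpin. They are printed 5′ to 3′ as DNA letters with the seed in capitals, and each of the 3 named miRNAs has a seed of its own.
tca-miR-34-5p_R+3: tGGCAGTGtggttagctggttgt
PC-3p-2015_2755: cGGCCACTtcccacactgccctc
tca-miR-277-3p: tAAATGCActatctggtacgaca
tca-miR-317-3p_R-3: tGAACACAgctggtggtatctc

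The second group is shown because miR-2788-3p and the miR-193 hairpin lie together on another scaffold and had opposite signs of change. PC-5p-24585_327 was listed as a candidate of its own, but its hairpin has the same letters as that of miR-193-3p, so it is the 5p arm of that hairpin. PC-5p-149551_42 is in the same way the 5p arm of the miR-2788 hairpin.
tca-miR-2788-3p_R+3_1ss11GA: cAATGCCCttagaaatcccaaa
PC-5p-149551_42: tGGGGTTTctagcggcatatgcc
dme-miR-193-3p_2ss10AG22CG: tACTGGCCtgctaagtcccaag
PC-5p-24585_327: cGGGACTTggtggtatagttgg

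The third group gives both arms of miR-9a and the candidate PC-5p-102_75534, which has the seed of miR-9a-5p but different bases in its middle part.
tca-miR-9a-5p_R+1: tCTTTGGTtatctagctgtatg
tca-miR-9a-3p_R+3_1ss18GA: aTAAAGCTaggttaccgaagtta
PC-5p-102_75534: tCTTTGGTgatgtaagctgtat

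The last group holds the most abundant miRNAs, miR-276b-3p and miR-8-3p, and a candidate that shares its seed with miR-2765-5p.
dme-miR-276b-3p_2ss10AC21CT: tAGGAACTtcataccgtgcttt
tca-miR-8-3p: tAATACTGtcaggtaaagatgtc
PC-5p-15_408936: tGGTAACTccgaaccaccgttgg
tca-miR-2765-5p: tGGTAACTccaccaccgttggc

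In these names the first letters give the species of the matched miRNA (tca for *Tribolium castaneum*, dme for *Drosophila melanogaster*), R and L give bases added or missing at the 3′ and 5′ ends, and ss marks substitutions. They are left out below where the rest is clear. Levels are CPM, the reads of a miRNA scaled to a fixed total per library and corrected by the TMM factors of edgeR, and are given in the order of replicates 1, 2 and 3.

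The 6 libraries held between 972506 and 2798093 reads on listed miRNAs, with 1 d replicate 2 the smallest. The sources do not say if each library came from its own pool of insects, so p-values measure only the spread between these libraries, which may be technical. The reads carry no molecular identifiers, and floors for a count of 0 cover counting error only. The labels name whole bodies, and miR-1-3p of muscle and miR-124 of neurons were both read in all 6 libraries. In RNA of whole bodies, fewer cells of a type and less RNA per cell cannot be told apart. One library, 1 d replicate 2, stood apart. It held at least 50% of all reads of 33 sequences, and these made up 6.0% of its reads, while such sequences made up between 0.00893% and 0.0355% of any other library. In 1 d replicate 2, 5.12% of the reads were of sequences without a position in the genome, against 0.607% to 0.829% in the others. Of these 33 sequences 8 were tested, all 8 were lower in 5 d, and their median log2 fold change was -5.26. They were chosen for their reads in a 1 d library, so this direction follows from the choice. Where this library moved the value of a named sequence or a list by much, the value without it is given as well.

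The 2-sided quasi-likelihood F-test of edgeR used the 9 libraries in one model. Of its 5 calls, 3 were higher in 5 d (0.880% of the sequences tested) and 2 lower (0.587%). At an unadjusted p below 0.05 there were 39 sequences (11.4%), 17 higher and 22 lower, and 5 of those 22 had most of their reads in 1 d replicate 2. DESeq2 called 13 (3.81%), including the 5 of edgeR. The number of calls depended on the library left out. With edgeR and 1 d replicate 1 or 1 d replicate 3 left out, 0 sequences were called, with 31 and 47 at an unadjusted p below 0.05. With 1 d replicate 2, 5 d replicate 1 or 5 d replicate 3 left out there were 2 calls each, and with 3 d replicate 2 or 5 d replicate 2 left out there were 3.

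miR-34-5p had the smallest p of all sequences. In *Drosophila*, miR-34 is known for its part in the ageing of the brain. Its level was 2699, 2332 and 2941 CPM in 1 d and 11579, 8107 and 8084 CPM in 5 d. All 5 d libraries lay above all 1 d libraries, and 5 d replicate 1 was the highest. miR-34-5p rose 3.48-fold (log2 fold change 1.80, SE 0.23, adjusted p 0.00826 by edgeR), and the 3 d mean of 6327 CPM lay in between. Without 1 d replicate 2 the log2 fold change was 1.69 (adjusted p 0.0426 by edgeR). Of the 9 fits with 1 library left out, 7 called miR-34-5p. The second sequence of the family, hme-miR-34_R+3, was rare, with 8.66, 0 and 12.5 CPM in 1 d and 17.7, 17.5 and 49.6 CPM in 5 d, again with no overlap, and was not called (log2 fold change 1.92, SE 1.41).

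The other arm of the miR-34 hairpin was listed as PC-3p-2015_2755. It had 148, 79.9 and 134 CPM in 1 d and 301, 216 and 144 CPM in 5 d. The libraries overlapped, since 5 d replicate 3 was just below 1 d replicate 1, and the difference was not called (log2 fold change 0.87, SE 0.38, adjusted p 0.414 by edgeR). The 5p arm held 94.8%, 96.7% and 95.6% of the reads of the hairpin in 1 d and 97.5%, 97.4% and 98.3% in 5 d. The 5p share was thus higher in every 5 d library, and the log2 change of the 5p to 3p ratio was 0.94 (SE 0.38, adjusted p 0.50 by limma, not called).

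miR-34, miR-277 and miR-317 lay on the same strand of one scaffold, miR-277-3p 7505 nt from miR-34-5p and miR-317-3p a further 15293 nt away. These miRNAs are also neighbours in *Drosophila*, where miR-277 is known to act on the breakdown of branched-chain amino acids. miR-317-3p had 10460, 11038 and 11764 CPM in 1 d and 25840, 26299 and 19515 CPM in 5 d. The 3 libraries of 1 d were close to each other and far below the lowest of 5 d. miR-317-3p rose 2.15-fold (log2 fold change 1.11, SE 0.18, adjusted p 0.0127 by edgeR), with a 3 d mean of 16075 CPM. Without 1 d replicate 2 the log2 fold change was 1.08 and the call was lost (adjusted p 0.0707 by edgeR).

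miR-277-3p, between the 2 others on the scaffold, had 2154, 2569 and 3409 CPM in 1 d and 2495, 3304 and 2924 CPM in 5 d. These ranges overlapped almost wholly, and the log2 fold change was 0.10 (SE 0.29, adjusted p 0.964 by edgeR). Ratios within a library do not depend on the scaling. The reads of miR-34-5p per read of miR-277-3p were 1.25, 0.908 and 0.863 in 1 d and 4.64, 2.45 and 2.76 in 5 d. For miR-317-3p per miR-277-3p the ratios were 4.86, 4.30 and 3.45 in 1 d and 10.4, 7.96 and 6.67 in 5 d, and for miR-34-5p per miR-317-3p they were 0.258, 0.211 and 0.250 in 1 d and 0.448, 0.308 and 0.414 in 5 d. No ratio overlapped between the phases, and the log2 changes were 1.67, 0.98 and 0.69. These 3 are among 7 ratios, most of them of neighbouring or seed-sharing miRNAs, that were chosen after their values had been seen. Each of the 7 holds a sequence called in the same comparison, so a lack of overlap is no separate support. None of the 7 overlapped between 1 d and 5 d, the exact 2-sided permutation p of each was 0.1, the smallest that 3 libraries against 3 allow, and adjusted over the 7 it was 0.1. All 5 tested sequences of miR-34, miR-277 and miR-317 were higher in 5 d, 2 of them called, with a median log2 fold change of 1.57 against 0.05 over all tested sequences. Besides the called sequences and miR-277-3p, these were rarer sequences of miR-34-5p and miR-317-3p, so the 5 are not independent. Over all tested sequences 184 of 341 were higher (54.0%).

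**Figure D1:**
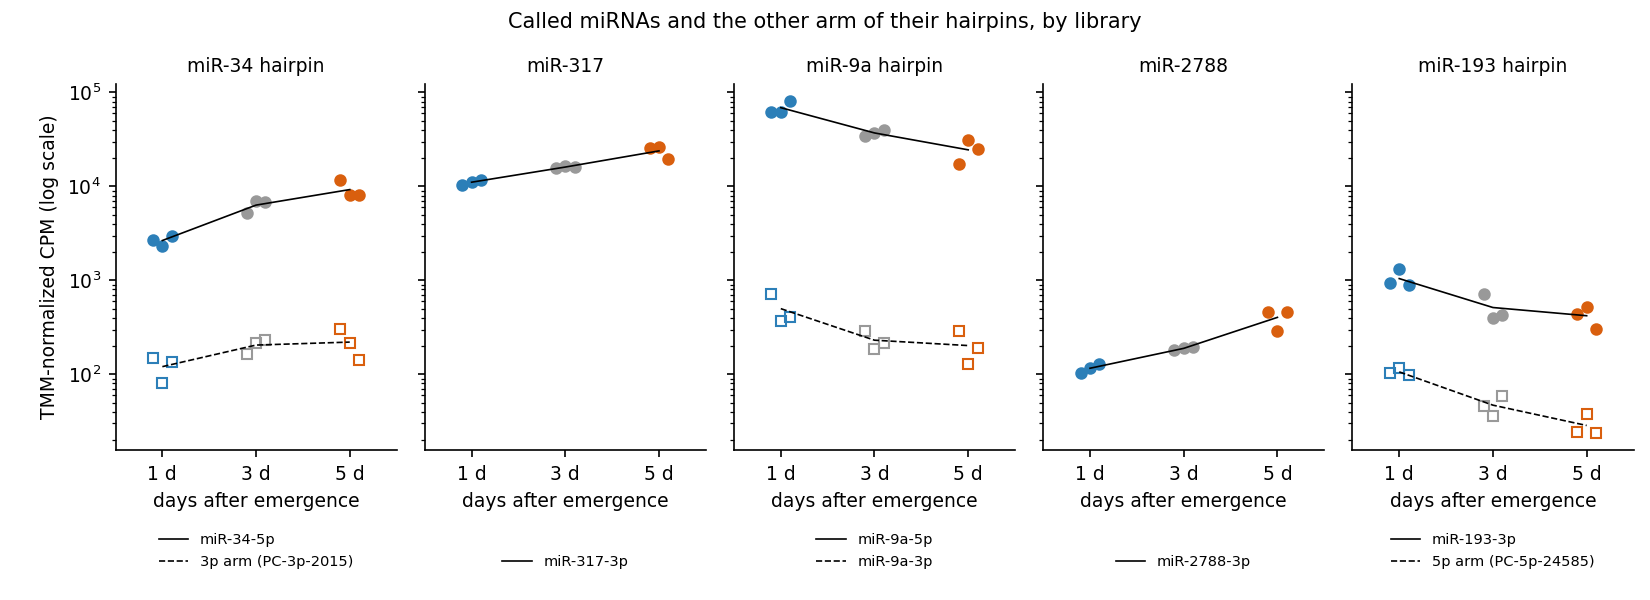
TMM-normalized CPM on a log scale in each library of 1 d (blue), 3 d (grey) and 5 d (orange) for the 5 called miRNAs and for the other arm of the miR-34, miR-9a and miR-193 hairpins; each point is 1 library and the lines join the means of the phases. The 3 d means of the called miRNAs lie between the 1 d and 5 d means, for example 6327 CPM for miR-34-5p between 2657 and 9256 CPM.

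miR-2788-3p lay 8473 nt from miR-193-3p on one strand of another scaffold. It rose while both arms of the miR-193 hairpin were lower in 5 d, and only one of these, the 5p arm, was called. miR-2788-3p had 104, 117 and 127 CPM in 1 d and 464, 293 and 455 CPM in 5 d. The lowest 5 d library, replicate 2, was still far above the highest of 1 d. miR-2788-3p rose 3.48-fold (log2 fold change 1.80, SE 0.29, adjusted p 0.0127 by edgeR), with 189 CPM as the 3 d mean. Without 1 d replicate 2 the call was lost at nearly the same log2 fold change of 1.79 (adjusted p 0.0736 by edgeR). Only 3 of the 9 fits with 1 library left out called miR-2788-3p. Its 5p arm PC-5p-149551_42 was near the limit of detection, with 8.66, 0 and 13.7 CPM in 1 d and 5.65, 0 and 0 CPM in 5 d.

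miR-193-3p, the major arm of its hairpin, had 927, 1307 and 901 CPM in 1 d and 436, 525 and 301 CPM in 5 d. The phases did not overlap, but the difference was not called (log2 fold change -1.31, SE 0.34, adjusted p 0.172 by edgeR). Its 5p arm PC-5p-24585_327 had 102, 117 and 99.3 CPM in 1 d and 24.1, 38.0 and 23.5 CPM in 5 d. Every 5 d library was far below the 1 d libraries, which lay close together. PC-5p-24585_327 fell by 1.89 on the log2 scale (SE 0.37, adjusted p 0.0422 by edgeR), with a 3 d mean of 47.0 CPM, and the call was lost with any one of the 9 libraries left out (-1.84 without 1 d replicate 2, adjusted p 0.0926). The 5p arm held 9.95%, 8.20% and 9.93% of the reads of the miR-193 hairpin in 1 d and 5.24%, 6.76% and 7.25% in 5 d. The shares did not overlap, and the log2 change of the ratio of the arms was -0.59 (SE 0.42, adjusted p 0.837 by limma, not called).

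Within a library, the reads of miR-2788-3p per read of miR-193-3p were 0.112, 0.0894 and 0.141 in 1 d and 1.06, 0.558 and 1.51 in 5 d, a change of 8.59-fold in the geometric mean. miR-193-3p thus had the more reads of the neighbours in all 1 d libraries, and miR-2788-3p in 2 of the 3 libraries of 5 d. In 5 d replicate 1 they were close, with 1230 reads of miR-2788-3p and 1157 of miR-193-3p. Per read of PC-5p-24585_327, miR-2788-3p had 1.01, 1 and 1.28 reads in 1 d and 19.2, 7.70 and 19.3 reads in 5 d, a 13-fold change. Both ratios are among the 7 named above.

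Of the called miRNAs, miR-9a-5p was the most abundant. In *Drosophila*, miR-9a limits the number of sensory organ precursor cells. Its level was 62458, 62414 and 81858 CPM in 1 d and 17469, 30955 and 25114 CPM in 5 d. The highest library of 5 d held less than the lowest of 1 d. miR-9a-5p fell by 1.49 on the log2 scale (SE 0.23, adjusted p 0.0127 by edgeR), with a 3 d mean of 37090 CPM, and by 1.57 without 1 d replicate 2 (adjusted p 0.0426). It was called in 6 of the 9 fits with 1 library left out. Its 3p arm had 720, 374 and 406 CPM in 1 d and 286, 130 and 191 CPM in 5 d. The phases did not overlap there either, but the 3p arm was not called (log2 fold change -1.31, SE 0.40, adjusted p 0.249 by edgeR).

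PC-5p-102_75534 had the seed of miR-9a-5p and a level of 4228, 4331 and 5472 CPM in 1 d and 4570, 6230 and 5602 CPM in 5 d. Its libraries overlapped, and its log2 fold change of 0.23 (SE 0.28) was not called. Per read of PC-5p-102_75534, miR-9a-5p had 14.8, 14.4 and 15 reads in 1 d and 3.82, 4.97 and 4.48 reads in 5 d. The 3 libraries of a phase were close in this ratio, which is one of the 7, and its log2 change was -1.74. The summed reads of all sequences with this seed had a log2 fold change of -1.23 (adjusted p 0.0604 by edgeR, not called). The 2 sequences of miR-9c-5p, with the same seed, were rare and had log2 fold changes of 0.57 (SE 0.62) and 1.5 (SE 1.15). Of the 7 tested sequences of the miR-9 and miR-79 list, 3 were higher and 4 lower in 5 d, with miR-9a-5p the only call and a median of -0.24. No sequence named miR-79 was listed. The ratio of miR-34-5p to miR-9a-5p, the last of the 7, was 0.0432, 0.0374 and 0.0359 in 1 d and 0.663, 0.262 and 0.322 in 5 d, a 9.88-fold change.

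Sums over all sequences of a family and arm gave 5 calls of 290 (1.72%) by edgeR. These were miR-34-5p (log2 fold change 1.76, adjusted p 0.00372), miR-2788-3p (1.77, adjusted p 0.0107), miR-317-3p (1.07, adjusted p 0.0118), miR-9-5p (-1.5, adjusted p 0.0118) and PC-5p-24585_327 (-1.92, adjusted p 0.0288). miR-193-3p had -1.33 (adjusted p 0.0969 by edgeR). Sums over a seed gave 4 calls of 250 (1.60%). Their seeds were those of miR-34-5p (log2 fold change 1.84, adjusted p 0.00588 by edgeR), miR-2788-3p (1.85, adjusted p 0.0125), miR-317-3p (1.15, adjusted p 0.0125) and PC-5p-24585_327 (-1.83, adjusted p 0.0367). With its seed partners summed in, miR-9a-5p was thus not among the calls.

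**Figure D2:**
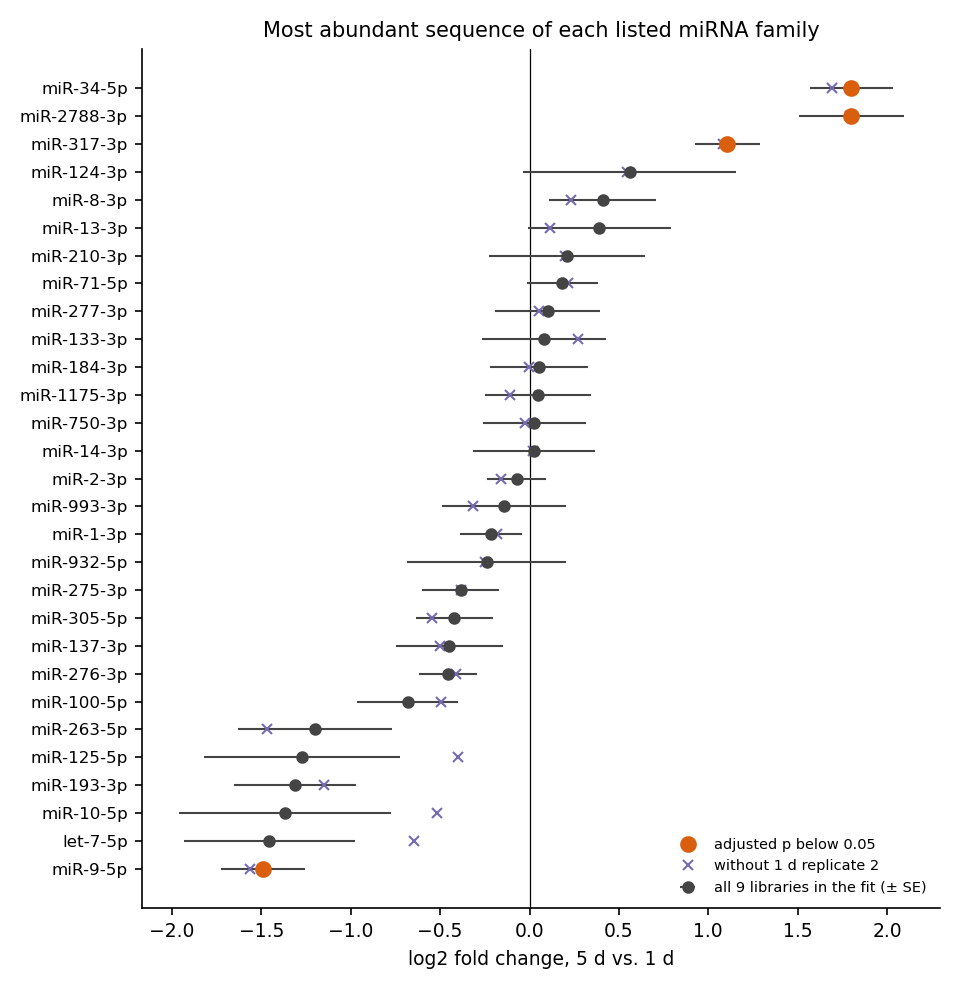
Log2 fold change in 5 d vs. 1 d (horizontal axis) of the most abundant sequence of each listed miRNA family except miR-96, with all 9 libraries in the fit (points, bars are ± SE) and without 1 d replicate 2 (crosses); orange points had an adjusted p below 0.05. miR-96, not drawn, had -5.06, and -0.45 without 1 d replicate 2. miR-34-5p and miR-2788-3p at 1.80 and miR-317-3p at 1.11 stand at the top and miR-9a-5p at -1.49 at the bottom, and the crosses of let-7-5p, miR-10-5p and miR-125-5p, at -0.65, -0.52 and -0.40, lie far from their points.

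let-7, miR-100 and miR-125 are processed from one transcript in *Drosophila*, where ecdysone drives them at the passage to the adult. Here let-7-5p lay 2493 nt from miR-100-5p and 47981 nt from miR-125-5p on one strand. let-7-5p had 15807, 43683 and 10414 CPM in 1 d and 9399, 8201 and 7896 CPM in 5 d. Every 5 d library was below every 1 d library, but 1 d replicate 2 was far above the rest. The log2 fold change was -1.45 (SE 0.48, adjusted p 0.275 by edgeR) with that library and -0.65 without it. miR-125-5p had 7740, 26814 and 7577 CPM in 1 d and 6553, 3121 and 7758 CPM in 5 d, and its log2 fold change was -1.27 with and -0.40 without 1 d replicate 2. miR-100-5p, one of the most abundant miRNAs, had 112952, 129244 and 62921 CPM in 1 d and 76291, 51466 and 62638 CPM in 5 d, with a log2 fold change of -0.68 (SE 0.28, adjusted p 0.408 by edgeR) and overlapping libraries. Of the 8 tested sequences of this list all 8 were lower and none was called. Their median of -2.14 became -0.55, with 7 of 8 lower, without 1 d replicate 2.

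miR-10 and miR-993 lie in the Hox gene cluster in insects. The most abundant miR-10-5p sequence had 8907, 23862 and 5106 CPM in 1 d and 4900, 2696 and 7059 CPM in 5 d, so that 1 d replicate 2 again stood apart and the other libraries overlapped. Its log2 fold change of -1.37 (SE 0.59, adjusted p 0.408 by edgeR) became -0.52 without that library, and miR-993-3p had -0.14 (SE 0.35). All 7 tested sequences of the list were lower, with a median of -0.73, and of -0.75 without 1 d replicate 2, and none was called.

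The reproduction-linked list held miR-275, miR-305, miR-184 and miR-989. In the mosquito *Aedes aegypti*, eggs do not develop and blood is poorly digested without miR-275, and miR-184 acts in egg formation in *Drosophila*. miR-275-3p had 17780, 17655 and 15480 CPM in 1 d and 16993, 10730 and 11236 CPM in 5 d. Its 5 d replicate 1 lay within the range of 1 d, and the log2 fold change was -0.39 (SE 0.21, adjusted p 0.587 by edgeR). miR-305, 2183 nt from it on the same strand, had 4700, 3611 and 4573 CPM in 1 d and 3294, 2991 and 3340 CPM in 5 d without overlap, but was not called (log2 fold change -0.42, SE 0.22, adjusted p 0.522 by edgeR). miR-184-3p had a log2 fold change of 0.05 (SE 0.27). Of the 8 tested sequences of the list 3 were higher and 5 lower, none was called, and the median was -0.22. Without 1 d replicate 2, 7 of 8 were lower and the median was -0.33. No sequence named miR-989 was listed.

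Muscle is marked by miR-1 and miR-133. miR-1-3p had 56597, 61905 and 55818 CPM in 1 d and 42420, 59035 and 48628 CPM in 5 d, with overlap and a log2 fold change of -0.22 (SE 0.17, adjusted p 0.732 by edgeR). miR-133-3p had a log2 fold change of 0.08 (SE 0.35). Its other arm, miR-133-5p, had 206, 132 and 141 CPM in 1 d and 78.4, 42.2 and 76.8 CPM in 5 d without overlap, and was not called (log2 fold change -1.28, SE 0.40, adjusted p 0.252 by edgeR). Of the 7 tested sequences of the muscle list 1 was higher and 6 were lower, with a median of -0.47 and none called. The neural list of miR-124, miR-137, miR-210 and miR-932 had 2 of 5 higher and 3 lower, with none called and a median of -0.24. Its most abundant sequences had log2 fold changes of 0.56 (SE 0.60), -0.45 (SE 0.30), 0.21 (SE 0.43) and -0.24 (SE 0.44).

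miR-263a protects mechanosensory bristles in *Drosophila*. miR-263a-5p had 4958, 1871 and 2203 CPM in 1 d and 1532, 876 and 1521 CPM in 5 d. The phases did not overlap, and 1 d replicate 1 was the highest by far. It was not called, with a log2 fold change of -1.20 (SE 0.43, adjusted p 0.331 by edgeR) and of -1.47 without 1 d replicate 2 and -0.65 without 1 d replicate 1. All 3 tested sequences of the miR-263, miR-96 and miR-183 list were lower, but miR-96 had 304 CPM in 1 d replicate 2 and no more than 8.67 CPM in the other 5 libraries. miR-315, which activates Wingless signalling in *Drosophila*, had 471, 188 and 389 CPM in 1 d and 110, 110 and 167 CPM in 5 d. Its libraries did not overlap either, and its log2 fold change of -1.44 (SE 0.39, adjusted p 0.181 by edgeR) was -1.74 without 1 d replicate 2 (adjusted p 0.0736), so neither fit called it.

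Among sequences with at least 10 CPM and no overlap between the phases, the 10 with the smallest p outside the calls included 2 candidates that were higher in 5 d. PC-3p-99602_71 had 4.52, 0 and 6.83 CPM in 1 d and 32, 36.8 and 22.9 CPM in 5 d (log2 fold change 2.89, SE 0.82, adjusted p 0.181 by edgeR). PC-5p-41317_196 had 45.9, 48.0 and 22.5 CPM in 1 d and 124, 89.4 and 110 CPM in 5 d (log2 fold change 1.48, SE 0.40, adjusted p 0.181 by edgeR). In both, the libraries of 5 d lay far above those of 1 d, and neither was called. Also among the 10 were a second miR-100 sequence and a second miR-10-5p sequence with most of their reads in 1 d replicate 2. Their log2 fold changes of -7.86 and -5.05 became -1.46 and -0.75 without it. The others of the 10 were miR-193-3p, miR-9a-3p, miR-133-5p, miR-315, let-7-5p and miR-276b-3p. Over all tested sequences, 62 of 341 had no overlap between 1 d and 5 d (18.2%).

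miR-276b-3p was the most abundant miRNA in 8 of the 9 libraries. In locusts, miR-276 is known to make eggs hatch at the same time. It had 255131, 321815 and 306380 CPM in 1 d and 228487, 235157 and 180292 CPM in 5 d. All 5 d libraries were below all 1 d libraries, yet the difference was not called (log2 fold change -0.46, SE 0.16, adjusted p 0.331 by edgeR). In the remaining library, 5 d replicate 3, miR-8-3p was the most abundant. miR-8, which acts in the fat body of *Drosophila* on insulin signalling and growth, had 164485, 113056 and 185205 CPM of its 3p arm in 1 d and 175433, 162432 and 276442 CPM in 5 d. These libraries overlapped, and the log2 fold change was 0.41 (SE 0.30, adjusted p 0.672 by edgeR) and 0.23 without 1 d replicate 2. All 6 tested sequences of miR-8 were higher in 5 d and none was called, with a median of 0.36, and of 0.19 without 1 d replicate 2. These were 3 sequences of each arm, of which the most abundant held 99.9% (3p) and 99.7% (5p) of the CPM, so they are not independent. Of the 6 tested sequences of miR-276, 4 were higher and 2 lower, with none called and a median of 0.01, and without 1 d replicate 2 the median was -0.04 with 3 of 6 lower.

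PC-5p-15_408936 was the most abundant candidate, with 36971, 21647 and 27180 CPM in 1 d and 47555, 28892 and 49581 CPM in 5 d. Its ranges overlapped, and its log2 fold change of 0.55 (SE 0.35, adjusted p 0.614 by edgeR) was not called. miR-2765-5p, with the same seed, had 5105, 3970 and 4768 CPM in 1 d and 8147, 5351 and 5334 CPM in 5 d without overlap, and was not called either (log2 fold change 0.44, SE 0.25, adjusted p 0.587 by edgeR). All 5 listed sequences with this seed were higher in 5 d, with log2 fold changes from 0.30 to 1.36, and their sum had 0.60 (SE 0.35, adjusted p 0.635 by edgeR).

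The other abundant miRNAs were not called. Their log2 fold changes were -0.07 (SE 0.16) for miR-2c-3p, 0.02 (SE 0.34) for miR-14-3p, 0.21 (SE 0.21) for miR-8-5p and 0.02 (SE 0.39) for miR-278-3p. miR-14 and miR-278 act in fat and energy metabolism in *Drosophila*, and miR-14-3p ranged from 19938 to 48299 CPM among the 1 d libraries alone. In the list of miR-2, miR-13 and miR-71, 6 of 7 tested sequences were higher, with a median of 0.18, and of 0.11 without 1 d replicate 2. In that of bantam and miR-14, 3 of 3 were higher, with a median of 0.18 and no entry for bantam, but 1 of 3 was lower and the median was 0.02 without 1 d replicate 2. In that of miR-1175 and miR-750, which lie 4990 nt apart, 3 of 3 were higher, with a median of 0.05, but 2 of 3 were lower and the median was -0.02 without that library. None of these sequences was called. The signs of miR-2c-3p, miR-14-3p, miR-278-3p, miR-184-3p, miR-133-3p, miR-993-3p, miR-1175-3p and miR-750-3p changed with the scaling or with the sequences kept, so their place among the higher or lower sequences of these lists is not settled. The same holds for miR-277-3p, miR-8-5p, miR-210-3p and miR-124, whose signs changed with a library left out.

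The ratio of the arms was tested by limma over 48 hairpins with both arms read, 19 of known miRNAs and 29 of candidates. For known miRNAs all sequences of a family name were summed by arm. A family with several hairpins, such as miR-2 or miR-9, is thus a single entry. Candidates were paired by genome position. Known hairpins counted known reads only and candidate hairpins candidate reads only, also where both lay on the same hairpin. Candidate 5p sequences such as PC-5p-60288_130, PC-5p-102_75534 and PC-5p-387_16479 were paired with different 3p sequences in separate entries, so these entries share reads. None was called (0%), 2 had an unadjusted p below 0.05, and the smallest adjusted p was 0.577. No other tool was run on the ratios. Of the 45 hairpins with reads in all 6 libraries, the 5p arm held over 50% in every library in 19 and the 3p arm in 21. The major arm of the counted reads was thus the same in 1 d and 5 d in these 40, and differed between libraries in 5. Reads left out can change which arm is the major one. The counted 5p share of miR-316 was 100% in 1 d and 99.9% in 5 d. The uncounted 3p candidate PC-3p-430_14726 on its hairpin had 898 and 906 CPM, against 871 and 707 CPM of miR-316-5p. One arm held over 90% of the counted reads in every library in 21.

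**Figure D3:**
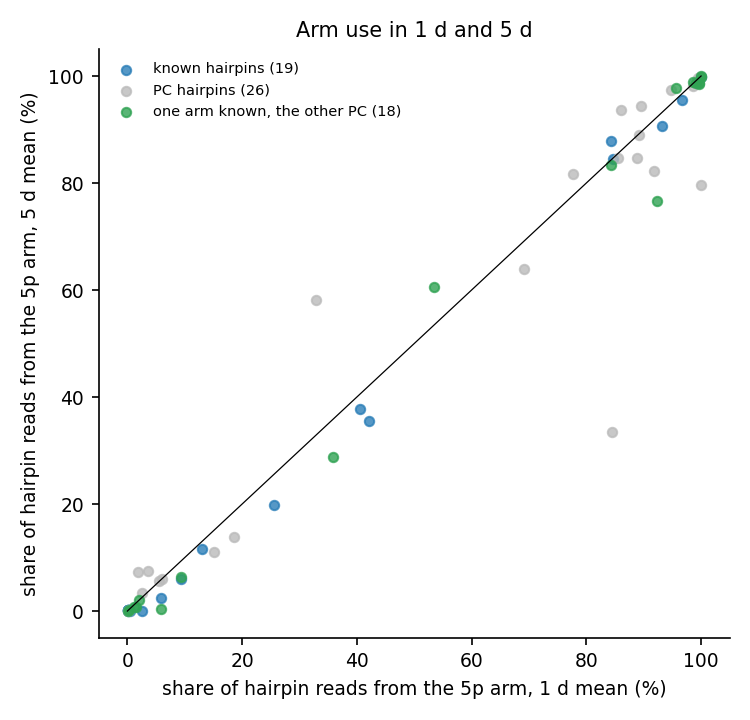
Mean share of hairpin reads from the 5p arm (%) in 1 d (horizontal axis) and 5 d (vertical axis), with 1 point per hairpin, for 19 known hairpins, 26 candidate hairpins with reads in all 6 libraries and 18 hairpins with one known and one candidate arm; the line marks equal shares. Known hairpins are sums of known reads over a family name, and candidate hairpins count candidate reads only. Most points lie near the line, and the candidate hairpin farthest below it, at 84.4% and 33.5%, rests on 65 reads of its 5p and 183 reads of its 3p arm. The same 5p reads, paired with the candidate PC-3p-67921_113, gave 32.9% in 1 d and 58.2% in 5 d.

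Among the known hairpins, only that of miR-133 had shares without overlap. Its 5p arm held 7.92%, 3.74% and 6.17% of the reads in 1 d and 1.92%, 1.78% and 3.66% in 5 d, although 1 d replicate 2 and 5 d replicate 3 were close. The log2 change of the ratio was -1.34 (SE 0.59, unadjusted p 0.0526, adjusted p 0.841 by limma). For miR-281, whose arms had similar reads, the 5p arm held 37.3%, 47.2% and 37.1% in 1 d and 38.0%, 34.8% and 40.5% in 5 d, and for miR-8 it held 10.6%, 17.1% and 11.3% in 1 d and 10.8%, 16.2% and 7.95% in 5 d. Both sets of libraries overlapped.

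Of the 562 candidates, 44 lay on a hairpin of a known miRNA, of 32 families, and these 44 held 30.7% of all candidate reads. In 27 of them the candidate came from the arm opposite to the most abundant known sequence of the hairpin and in 17 from the same arm. In 20 pairs of opposite arms both were tested, and 11 of the pairs had the same sign of change, as did 7 of the 12 tested pairs on the same arm. With the 18 hairpins of one known and one candidate arm added, which was done after the values had been seen, 0 of 66 ratios were called by limma and 5 had an unadjusted p below 0.05. The shares did not overlap between the phases in 6 of the 18, those of miR-34, miR-193, miR-263, miR-190, miR-971 and miR-278, and none of these was called. Among the 45 hairpins above with reads in all 6 libraries, 2 did not overlap. For miR-263 the 5p arm held 100%, 100% and 99.9% in 1 d and 99.7%, 99.7% and 99.8% in 5 d, and for miR-190 it held 99.4%, 100% and 99.3% in 1 d and 98.3%, 98.9% and 98.9% in 5 d, so the candidate 3p arm was rare in both. For miR-971 the 5p arm, here the candidate, held 56.3%, 55.7% and 48.5% in 1 d and 56.4%, 59.3% and 66.2% in 5 d, and the phases nearly touched. The miR-278 hairpin had 1.18%, 1.37% and 1.78% from the 5p arm in 1 d and 0.650%, 0.802% and 1.09% in 5 d (log2 change -0.79, SE 0.48, adjusted p 0.837 by limma).

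The sequences of one family and arm, which differ at their ends, at single bases or as relatives such as miR-9a and miR-9c, were compared in the 31 families and arms with at least 2 tested sequences, 82 sequences in all. In 20 of these all sequences had the same sign, 9 higher and 11 lower, and in 11 both signs occurred. Without 1 d replicate 2, all were higher in 5, all lower in 12 and both signs occurred in 14. The most abundant sequence held over 90% of the CPM of its family and arm in 24 of the 31. In the miR-9-5p and miR-193-3p families the signs split. The 2 miR-9c sequences were higher and miR-9a-5p lower, and the rare second miR-193 sequence (log2 fold change 2.82, SE 1.66) was higher and the main one lower.

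Known miRNAs gave 4 calls of 126 tested (3.17%) and candidates 1 of 215 (0.465%). In the known 5p arms, 13 of the 14 sequences with an unadjusted p below 0.05 were lower in 5 d, with a median log2 fold change of -0.26 over all 56 tested, and in the known 3p arms 5 of 7 were lower, with a median of 0.02 over 70. In the candidate 3p arms, 12 of the 12 with an unadjusted p below 0.05 were higher, with a median of 0.21 over 124, and in the candidate 5p arms 2 of 6 were higher, with a median of 0.05 over 91. Of the 13 lower sequences of the known 5p arms, 5 had most of their reads in 1 d replicate 2. Without that library, 7 of 8 known 5p sequences with an unadjusted p below 0.05 were lower (median -0.23), 3 of 5 known 3p sequences were lower (median -0.04), 5 of 5 candidate 3p sequences were higher (median 0.23) and 2 of 6 candidate 5p sequences were higher (median 0.01). The difference between these classes was not tested.

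**Figure D4:**
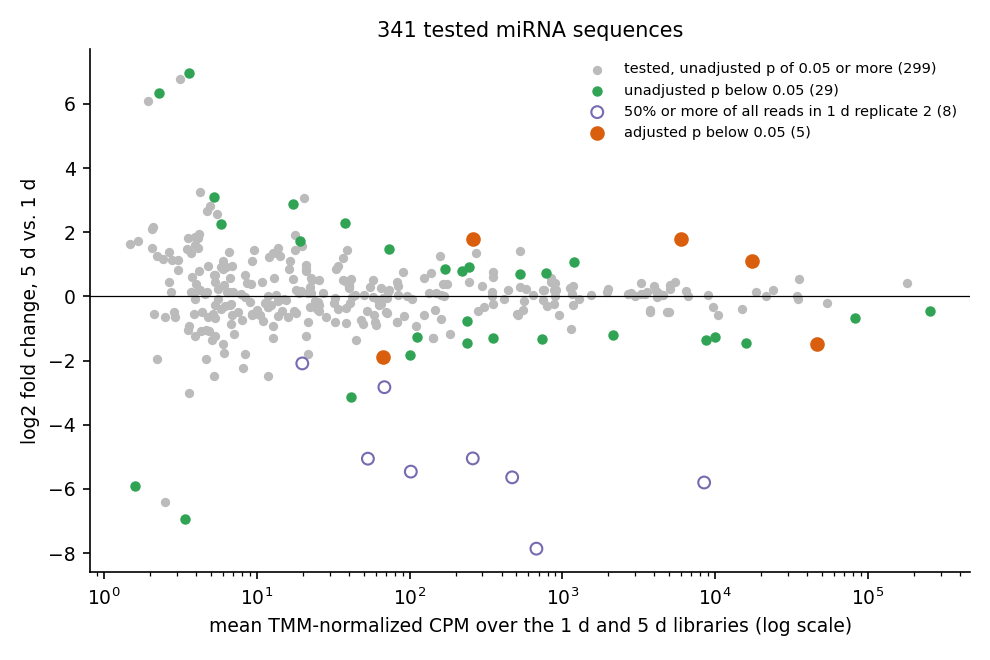
Log2 fold change in 5 d vs. 1 d (vertical axis) against the mean TMM-normalized CPM over the 6 libraries (log scale) of the 341 tested sequences. The 5 orange points are called by edgeR, the 29 green ones have an unadjusted p below 0.05, and the 8 open ones had most of their reads in 1 d replicate 2 and include the lowest point, at -7.86.

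The spread of the fold changes narrowed with abundance. Below 10 CPM the median SE of the log2 fold change was 1.46 over 106 sequences, and 48.1% had an absolute log2 fold change above 1 with none called. Between 10 and 100 CPM the median SE was 0.61 over 116 sequences with 1 call, between 100 and 1000 CPM it was 0.39 over 65 with 1 call, and between 1000 and 10000 CPM it was 0.31 over 39 with 1 call. Above 10000 CPM it was 0.28 over 15 sequences, of which 2 were called. The medians of the log2 fold change in these 5 classes were 0.15, -0.04, 0.01, 0.06 and -0.07. The TMM scaling centres the bulk of the sequences on no change, so these medians cannot show if a class shifted as a whole. A difference between the classes was not tested.

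Reads were mostly of sequences of 22 and 23 nt. The share of 22 nt was 68.4%, 71.9% and 68.0% in 1 d and 63.8%, 65.9% and 54.6% in 5 d (69.5% ± 2.15 and 61.5% ± 6.0, SD, n = 3 libraries each). The share of 23 nt was 23.4%, 14.8% and 23.9% in 1 d and 28.7%, 24.9% and 37.6% in 5 d (20.7% ± 5.11 and 30.4% ± 6.49). Neither share overlapped between the phases, and the exact 2-sided permutation p was 0.1 for each (n = 3 against 3), the smallest possible, with 0.475 after adjustment over 19 shares.

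**Figure D5:**
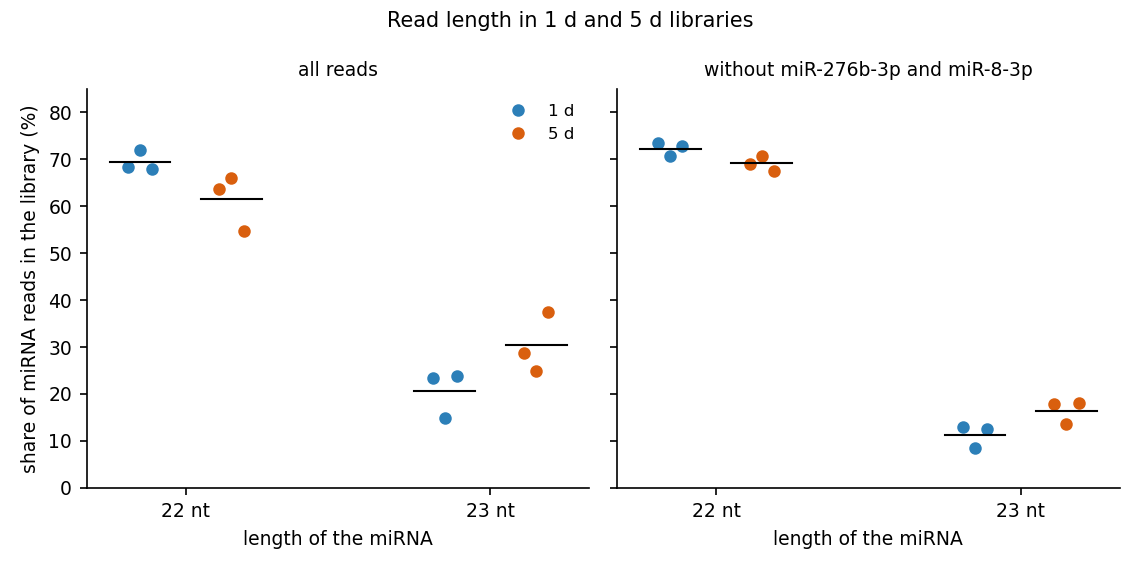
Share of miRNA reads in a library (%, vertical axis) on sequences of 22 and 23 nt in 1 d (blue) and 5 d (orange), over all reads (left) and without miR-276b-3p and miR-8-3p (right); each point is 1 library and the line is the mean. On the left the phases do not overlap, and on the right the 22 nt means are 72.3% in 1 d and 69.1% in 5 d.

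The 2 most abundant miRNAs differ in length, miR-276b-3p with 22 nt and miR-8-3p with 23 nt. Their mean levels differed by -79797 and 50521 CPM between 1 d and 5 d, the largest differences of any sequence in either direction, followed by -44397 CPM of miR-9a-5p. Without miR-276b-3p and miR-8-3p, which were left out after the values had been seen, 22 nt made up 73.4%, 70.8% and 72.8% of the reads in 1 d and 69.1%, 70.8% and 67.6% in 5 d. One 5 d library then reached into the range of 1 d. The share of 23 nt was 13%, 8.43% and 12.5% in 1 d and 17.9%, 13.5% and 18% in 5 d and still did not overlap.

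The share of reads on candidates was 8.83% ± 0.54 in 1 d and 11.7% ± 0.02 in 5 d (SD, n = 3 each, exact permutation p 0.1, 0.475 after adjustment). Without PC-5p-15_408936 it was 5.65%, 6.39% and 6.62% in 1 d and 6.69%, 8.62% and 6.69% in 5 d. The libraries still did not overlap, but 2 of the 5 d libraries lay just above the highest of 1 d. Reads that began with C made up 3.91% ± 0.21 in 1 d and 4.93% ± 0.54 in 5 d, the fourth share without overlap (exact permutation p 0.1, 0.475 after adjustment, n = 3 each).

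Few sequences were read in every library of one phase and in none of the other. Of the 759 sequences, 543 had reads in any 1 d library and 607 in any 5 d library, and 251 had reads in all 6. There were 3 sequences read in every 5 d and no 1 d library. They were picked for having no reads in 1 d. PC-3p-112229_61 had 32, 15 and 5 reads in 5 d, and edgeR did not call it (adjusted p 0.125). Its level pooled over 5 d was 15.5-fold above a floor of 3 reads over the 1 d libraries. The spread of the 5 d libraries, at 12.1, 6.27 and 3.10 CPM, does not enter such a value, so it is no lower limit. PC-5p-139494_46 had 16, 7 and 5 reads in 5 d, pooled 8.34-fold above the floor. A variant of miR-14-3p had 7, 3.5 and 7.5 reads, pooled 5.36-fold above it. In the other direction, PC-3p-252877_19 was the only sequence read in every 1 d and no 5 d library, with 16 reads in all.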

How the data were processed

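Small RNA of whole bodies was sequenced in 9 libraries, 3 per phase. Reads were cleaned by the authors in ACGT101-miR, freed of other RNA classes and repeats, and matched to miRBase and the genome, with RNAfold for hairpins. No version of ACGT101-miR or RNAfold and no genome build is named in the sources used here. The labels describe the protocol of an mRNA library, while all listed sequences were 18 to 26 nt long. The deposited raw columns hold estimated counts of reads per miRNA without normalization. The deposited normalized columns hold a signal, the raw counts times 1 factor per library, and served only to check that factor. Length and hairpin free energy are other deposited values of the authors.

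The 905 entries gave 759 distinct sequences, of which 224 had counts that were not whole, and these were rounded for the count tests. Columns of per-sample values without a sample numbered 0. Reads on listed miRNAs ranged from 972506 to 3184052 per library, r of log2 CPM within a phase from 0.887 to 0.973, and the biological coefficient of variation was 0.692. The main test was the quasi-likelihood F-test of edgeR 4.0.16 in R 4.3.3 in its legacy form, with TMM factors, the default filter on low counts, all 9 libraries and phase as the only term. Calls needed a p below 0.05 after Benjamini-Hochberg adjustment. The SE is the absolute log2 fold change divided by the square root of F. Sums over a family and arm and over a seed were tested in the same way. Ratios of 5p to 3p reads were tested by limma 3.58.1 on log2 values with 0.5 reads added, for hairpins with at least 10 reads in each arm and 100 in both. For these, known sequences were summed by family name and arm, and candidates were paired by genome position. A candidate was placed on a known hairpin where the letters of one hairpin, with 10 nt trimmed from its ends, stood in the other. Shares were compared by exact permutation of the 6 libraries with scipy 1.17.1. The scripts for these tests were tested on simulated data. Python 3.11.15 with numpy 2.4.6, pandas 2.3.3 and matplotlib 3.10.9 was used for tables and plots.

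The text names the called sequences and their opposite arms, the 10 with the smallest p after them that had at least 10 CPM and no overlap between 1 d and 5 d, the 10 most abundant, and the most abundant sequence of each listed family. The comparison, these lists and the rule were chosen with earlier results of these data known. Candidates on known hairpins, seed partners, the ratios between miRNAs and sequences read in one phase alone were named after their values had been seen. Alternatives were DESeq2 1.42.0, a newer form of the edgeR test, DESeq2 size factors or library totals for scaling, the filter set to 10 CPM or dropped, only the 6 libraries compared, the replicate number as a block, unrounded counts, calls limited to an absolute log2 fold change above 1, an unadjusted p, ratios with 1 or 5 reads added, the most abundant sequence left out of the shares, and each library left out in turn. After the data had been seen, further ones were added, namely leaving out sequences with most reads in 1 library or without a genome position, adding hairpins with one candidate arm, and leaving out miR-276b-3p and miR-8-3p from the shares.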

Additional observations from a re-analysis of the deposited data

How the results depend on the processing

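Against 5 calls of single sequences, DESeq2 gave 13, no filter 26 (13 of them with most reads in 1 d replicate 2), an unadjusted p 39 and only the 6 libraries compared 1, and 0 to 4 were left with a library left out. Against 5 calls of family and arm sums, DESeq2 gave 15, an unadjusted p 35, and leaving out a library 0 to 6. Against 4 calls of seed sums, DESeq2 gave 16, an unadjusted p 30, only the 6 libraries 2, and leaving out a library 1 to 6. No ratio of arms was called with any library left out (0 to 0), and 2 had an unadjusted p below 0.05. The cause was not tested.

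Without the most abundant sequence of each library, the differences of 5 d minus 1 d were 2.5 percentage points for 22 nt, -0.071 for 23 nt and 3.66 for PC. That sequence was miR-8-3p in one library, so the sequences left out were not the same. Without miR-276b-3p and miR-8-3p they were -3.18 for 22 nt and 5.69 for PC. Leaving out a library gave -10.25 to -4.60 for 22 nt, 6.09 to 12.41 for 23 nt, 2.53 to 3.01 for PC, 0.83 to 3.83 for a first base T and -2.13 to 0.39 for the top 10.

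Deviations from the phase means correlated at 0.138, 0.0672 and 0.236 between 1 d and 5 d libraries of one replicate number. For libraries of one number they correlated at -0.188, -0.386 and 0.371 between 1 d and 3 d, and at 0.417, 0.0237 and 0.351 between 3 d and 5 d. Between libraries of different numbers the correlations ran from -0.512 to 0.495. Not every library correlated best with its own number. With 3 libraries per phase, these values cannot settle if the numbers pair the libraries. With the replicate number as a block there were 4 single calls, 4 family and arm calls, 5 seed calls and 0 calls of ratios, and the call of PC-5p-24585_327 was lost.

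Log2 fold changes reversed only in miRNAs that were not called. With library totals miR-2c-3p had 0.11 and miR-993-3p 0.031. miR-278-3p had -0.0040 without a filter and -0.0045 with a filter of 10 CPM, and miR-750-3p -0.0100 with the block. With sequences left out that had most reads in 1 library, miR-14-3p had -0.034, miR-278-3p -0.033, miR-184-3p -0.010, miR-133-3p -0.0059, miR-1175-3p -0.0041 and miR-750-3p -0.034. Leaving out a library reversed miR-278-3p (-0.40 to 0.46), miR-750-3p (-0.18 to 0.14), miR-1175-3p (-0.22 to 0.16), miR-14-3p (-0.26 to 0.25), miR-133-3p (-0.35 to 0.27), miR-184-3p (-0.26 to 0.23), miR-210-3p (-0.15 to 0.41), miR-277-3p (-0.058 to 0.19), miR-8-5p (-0.017 to 0.26) and miR-124 (-0.16 to 0.78).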

Other observations

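A group of 3 candidates lay within 8001 nt on one strand of a scaffold, and all 3 were higher in 5 d without a call. PC-3p-2920_1945, PC-3p-91528_79 and PC-3p-2060_2700 had log2 fold changes of 0.91, 1.26 and 0.78. Over all pairs of tested sequences within 50000 nt on one strand, 57 of 77 had the same sign of change. These pairs share hairpins and members and are not independent, and the value is a description.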
